A study of Mus musculus with 16 samples.

Results

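The Frizzled receptors are the genes Fzd1 to Fzd10, 10 of the 23284 genes in the expression table of this study. They were chosen by gene symbol, and each symbol occurred in the table. RNA was sequenced from dissected prefrontal cortex (PFC) of 2–3-month-old mice, in 16 libraries, 4 of each of 4 genotypes. APC cKO mice were APC fl/fl and lacked the adenomatous polyposis coli protein, which drives β-catenin degradation, in Cre-expressing neurons. β-cat cOE mice were ctnnb1 fl(ex3)/+ and made a stable β-catenin after deletion of exon 3. APC/β-cat cKO mice were APC fl/fl and ctnnb1 fl/fl and lost both proteins in the same neurons. All 3 lines carried the CamKIIα-Cre-93 driver, which acts mainly in forebrain excitatory neurons, so the other cells of the tissue kept both genes. Control mice were Cre-negative littermates pooled from all lines. The labels do not say that each library came from a separate mouse, and p-values measure the spread between these libraries.

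Frizzled proteins are multi-pass membrane receptors of class F, and their cysteine-rich extracellular domain binds Wnt ligands. With the co-receptors Lrp5 and Lrp6 they recruit Dishevelled and protect β-catenin from the destruction complex that contains APC. Some members also serve planar cell polarity and axon guidance, of which Fzd3 in forebrain axon tracts is the classic example. By sequence the family falls into subgroups, which are Fzd1/2/7, Fzd3/6, Fzd5/8, Fzd9/10 and Fzd4 alone. Both APC deletion and stabilised β-catenin act downstream of the receptor. The comparisons below ask whether the transcripts of the receptors themselves differed with β-catenin level.

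The values are FPKM, fragments per kilobase of transcript scaled to the mapped fragments of the library, so levels can be set side by side between genes. Apc averaged 43.9 ± 4.21 FPKM (SD, n = 4) in control and 44.5 ± 5.11 FPKM in β-cat cOE, against 11.7 ± 3.88 FPKM in APC cKO and 10.05 ± 2.30 FPKM in APC/β-cat cKO. At gene level ctnnb1 averaged 159.9 FPKM in control, 170 in APC cKO, where it is intact, and, in the lines that carry its deletions, 159.7 in β-cat cOE and 155 in APC/β-cat cKO. Read depth per library is unknown, since only normalised values were used, and between 5726 and 6649 genes were listed at 0 in a library. The excitatory neuron markers Slc17a7, Neurod6, Tbr1 and Camk2a summed to 1055–1362 FPKM over the libraries. Markers of the other cell types were present too, and the summed striatal markers ranged from 50.5 to 311 FPKM between libraries. In RNA from whole tissue, fewer cells of a type and less RNA per cell cannot be told apart. By Xist and Y-linked genes 2 libraries, control 1 and APC cKO 1, came from female mice and 14 from male mice.

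Every member was above 0 in all 16 libraries, and 1 member dominated the family. Fzd3 averaged 11.6 ± 1.67 FPKM (SD, n = 16 libraries), Fzd1 3.32 ± 0.299, Fzd2 2.57 ± 0.302, Fzd9 2.04 ± 0.338, Fzd7 1.82 ± 0.278, Fzd4 1.79 ± 0.242, Fzd6 1.71 ± 0.422, Fzd8 1.26 ± 0.202, Fzd10 0.694 ± 0.299 and Fzd5 0.358 ± 0.122 FPKM. Fzd3 was above Fzd1 in 16 of 16 libraries. The next steps of the order held in fewer libraries, with Fzd1 above Fzd2 in 14, Fzd2 above Fzd9 in 14, Fzd6 above Fzd8 in 13, Fzd8 above Fzd10 in 15 and Fzd10 above Fzd5 in 15. Fzd9, Fzd7, Fzd4 and Fzd6 were not separated, since each exceeded the next in only 10, 9 and 8 of 16 libraries. In the control libraries alone Fzd4 stood above Fzd7 in all 4, the only change of order. Set among all 23284 genes, the mean of Fzd3 was above 72.2% of genes and that of Fzd5 above 37.9%.

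The 10 members summed to 27.1 ± 1.75 FPKM, with a lowest library of 23.4 and a highest of 29.4. Fzd3 made up 42.5% ± 4.22 of that sum (SD, n = 16), Fzd1 12.3%, Fzd2 9.50%, Fzd9 7.56%, Fzd7 6.73%, Fzd4 6.64%, Fzd6 6.31%, Fzd8 4.65%, Fzd10 2.55% and Fzd5 1.31%. The share of Fzd3 averaged 46.3% ± 2.86 in control, 41.5% ± 3.37 in APC cKO, 41.6% ± 3.55 in β-cat cOE, and in APC/β-cat cKO 40.6% ± 5.52 (n = 4 each). Single libraries ran from 35.2% to 48.8%, and the ranges of the genotypes overlapped.

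**Figure D1:**
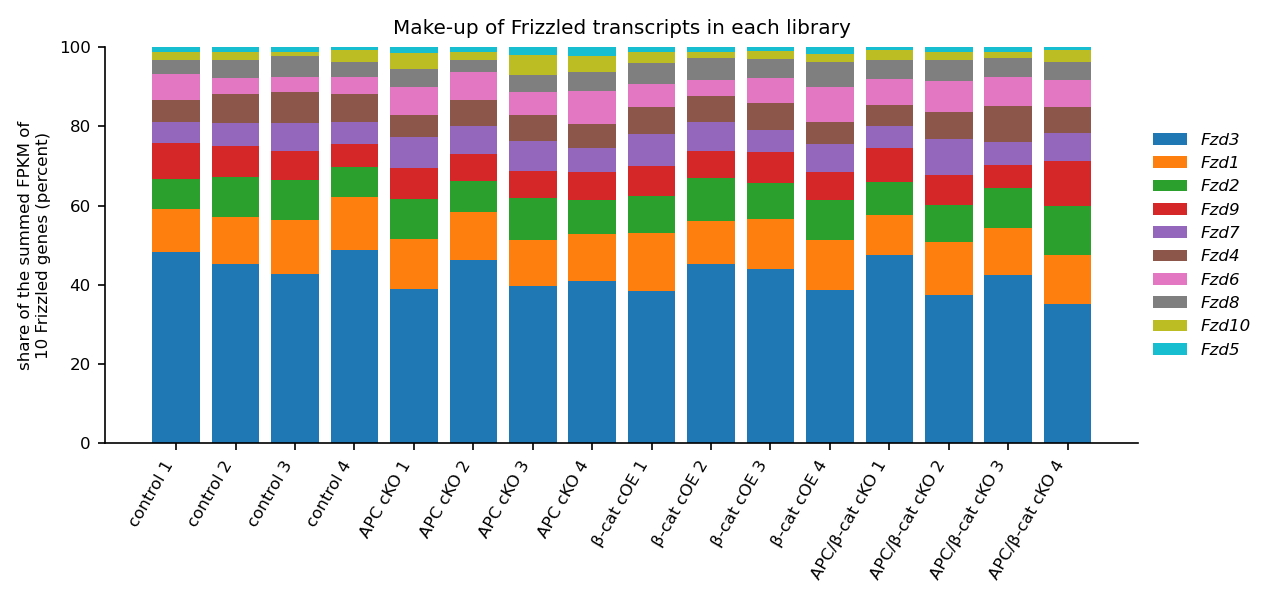
Stacked bars give the share, in percent, of each Frizzled gene in the summed FPKM of the 10 genes, 1 bar per library in the order of the genotypes. Fzd3 (lowest segment) takes between 35.2% and 48.8% of every bar, and Fzd5 (top segment) takes the least on average, 1.31%.

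Fold changes were tested with limma on log2(FPKM + 0.1), a scale that understates the change of low genes, with Benjamini-Hochberg adjustment over all 13978 genes that averaged at least 0.5 FPKM. Of the members 9 entered the test, and Fzd5 fell below the limit. No member passed an adjusted p of 0.05 in any comparison of genotypes (0 of 9 each). Few genes of any kind did. The share of all genes called was 0.0429% for APC cKO against control, 0.0143% for β-cat cOE against control, 0.207% for APC/β-cat cKO against control, 0.215% for APC cKO against APC/β-cat cKO, 0.229% for β-cat cOE against APC/β-cat cKO and 0.0429% for APC cKO against β-cat cOE. It was 0.0572% for the mean of the 2 lines with raised β-catenin (APC cKO and β-cat cOE) against the mean of the other 2 groups, and 0.25% for any difference among the 4 genotypes. These shares rest on few calls that single libraries moved. Without control 1 the 6 calls of APC cKO against control became 43, and the 35 of any difference became 96, with no member among them.

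At an unadjusted p under 0.05, limma gave 3 of 9 members in APC cKO against control (Fzd10, Fzd6 and Fzd7, each with a higher mean in APC cKO), beside 10% of all genes, and 1 of 9 without control 3 or without APC cKO 3. It gave 1 of 9 in β-cat cOE against control (Fzd8, higher), beside 5.07% of all genes, and 1 of 9 in APC/β-cat cKO against control (Fzd6, higher), beside 14.2%. APC cKO against β-cat cOE gave 2 (Fzd10 higher and Fzd8 lower in APC cKO), beside 7.57%. The raised β-catenin lines against the others gave 1 (Fzd7, higher), beside 8.84%, and any difference among the genotypes gave 2 (Fzd6 and Fzd8), beside 12%. APC cKO against APC/β-cat cKO and β-cat cOE against APC/β-cat cKO gave 0 members, beside 10.3% and 11.9% of all genes. Without the limit on low values, which lets Fzd5 in, each of these 2 gave 1 of 10 members, higher in the raised line. Beside it stood 1815 and 1996 of 19443 genes. The raised β-catenin lines against the others then gave 2 of 10, both higher, beside 1604 genes. The 3 comparisons with control share the same 4 control libraries.

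The medians of all genes tested lay within 0.01 of 0 on the log2 fold change scale. The median log2 fold change of the 9 members was 0.0060 in APC cKO, 0.089 in β-cat cOE and 0.12 in APC/β-cat cKO, each against control. Leaving out 1 library moved it to between -0.035 (without APC cKO 1) and 0.10 (without APC cKO 2) in APC cKO, 0.040 (without β-cat cOE 1) and 0.17 (without control 1) in β-cat cOE, and 0.055 (without control 4) and 0.17 (without control 2) in APC/β-cat cKO. By sign alone 5 of 9 members were higher in APC cKO, 7 of 9 in β-cat cOE and 6 of 9 in APC/β-cat cKO, where 48.6%, 48.5% and 50.8% of all genes were higher.

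**Figure D2:**
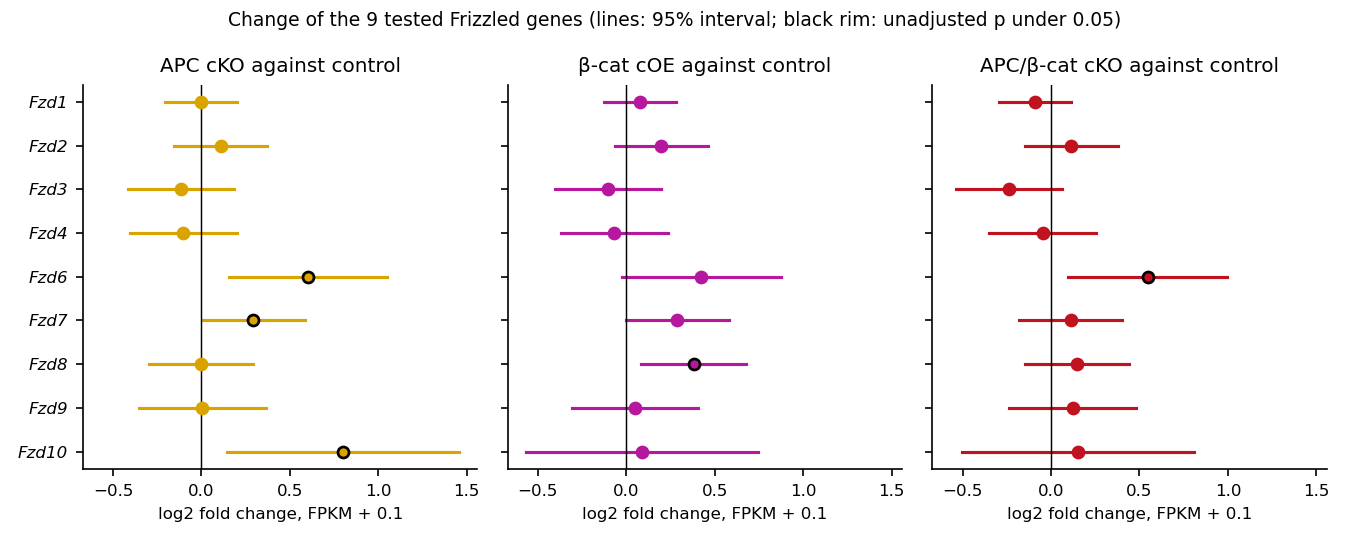
Points are the log2 fold changes on FPKM + 0.1 of the 9 tested Frizzled genes against control in APC cKO (left), β-cat cOE (middle) and APC/β-cat cKO (right), and lines are 95% intervals from the limma fit. Points with a black rim (Fzd6, Fzd7 and Fzd10 on the left, Fzd8 in the middle, Fzd6 on the right) had an unadjusted p under 0.05, and none passed the adjusted threshold.

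The subgroup of Fzd3 and Fzd6 differs from most of the family in its gene structure. In the GENCODE M21 annotation of mm10, Fzd3 (chr14:65192449-65262463, minus strand) and Fzd6 (chr15:39006034-39038188, plus strand) have 7 exons each, Fzd4 and Fzd5 have 2, and the other 6 members have a single exon. The Fzd3 transcript has 12734 nucleotides and codes for 666 amino acids, the Fzd6 transcript has 4325 nucleotides for 709 amino acids. Only 0.0941% of the 50-base words of Fzd3 and none of Fzd6 occurred in another annotated gene, so reads could hardly be split between family members.

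Fzd3, the receptor of axon guidance and neuronal polarity, measured 14.2, 12.4, 10.02 and 13.4 FPKM in the 4 control libraries, 10.9, 12.8, 10.9 and 11.2 in APC cKO, 10.6, 12.8, 12.4 and 10.5 in β-cat cOE, and 13.8, 9.22, 11.7 and 8.23 in APC/β-cat cKO. The double mutants held both the lowest library and one near the top, and all genotypes overlapped. Its log2 fold changes ran from -0.24 to 0.13 over the 6 pairs of genotypes and the contrast of raised β-catenin, with a smallest unadjusted p of 0.115.

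Fzd6 acts with Fzd3 in the planar polarity of skin and neural tissue. Its control libraries read 1.94, 1.12, 0.918 and 1.17 FPKM. APC cKO libraries read 1.996, 1.91, 1.63 and 2.27 FPKM, β-cat cOE libraries 1.65, 1.18, 1.81 and 2.37 FPKM, and APC/β-cat cKO libraries 1.91, 1.91, 2.03 and 1.61 FPKM. The control libraries other than control 1 lay below every library with Cre, while control 1 lay among them. The margin was small, with control 4 at 1.171 FPKM and β-cat cOE 2 at 1.177 FPKM. This layout was noticed after the values were seen, and its share over all genes was not counted. The mean was 1.29 ± 0.449 FPKM (SD, n = 4) in control, 1.95 ± 0.265 in APC cKO, 1.75 ± 0.490 in β-cat cOE and 1.86 ± 0.181 in APC/β-cat cKO.

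The log2 fold change of Fzd6 against control was 0.60 in APC cKO (SE 0.21, 95% interval 0.15 to 1.05, adjusted p = 0.367, limma) and 0.55 in APC/β-cat cKO (SE 0.21, 95% interval 0.098 to 0.99, adjusted p = 0.289). It was 0.42 in β-cat cOE, with an unadjusted p of 0.0622. Between the Cre lines it was at most 0.18, with intervals that included 0. Leaving out control 1 raised the 3 values to 0.80, 0.75 and 0.63 (adjusted p = 0.0993, 0.146 and 1), still short of the threshold. Control 1 was also one of the female libraries and had the highest summed striatal markers among the controls, 234 FPKM against 58.1–109.7 FPKM in the others. With sex as a covariate the APC cKO value was 0.60 (adjusted p = 0.311), and without both female libraries 0.79 (adjusted p = 0.203). In APC cKO and in APC/β-cat cKO the library with the highest striatal sum had the lowest Fzd6 of its genotype. These were APC cKO 3 (311 FPKM, Fzd6 1.63 FPKM) and APC/β-cat cKO 4 (219 FPKM, Fzd6 1.61 FPKM). In β-cat cOE the library with the highest striatal sum, β-cat cOE 4 (159 FPKM), had the highest Fzd6, 2.37 FPKM. The part of the striatal RNA in the value of Fzd6 was not tested.

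**Figure D3:**
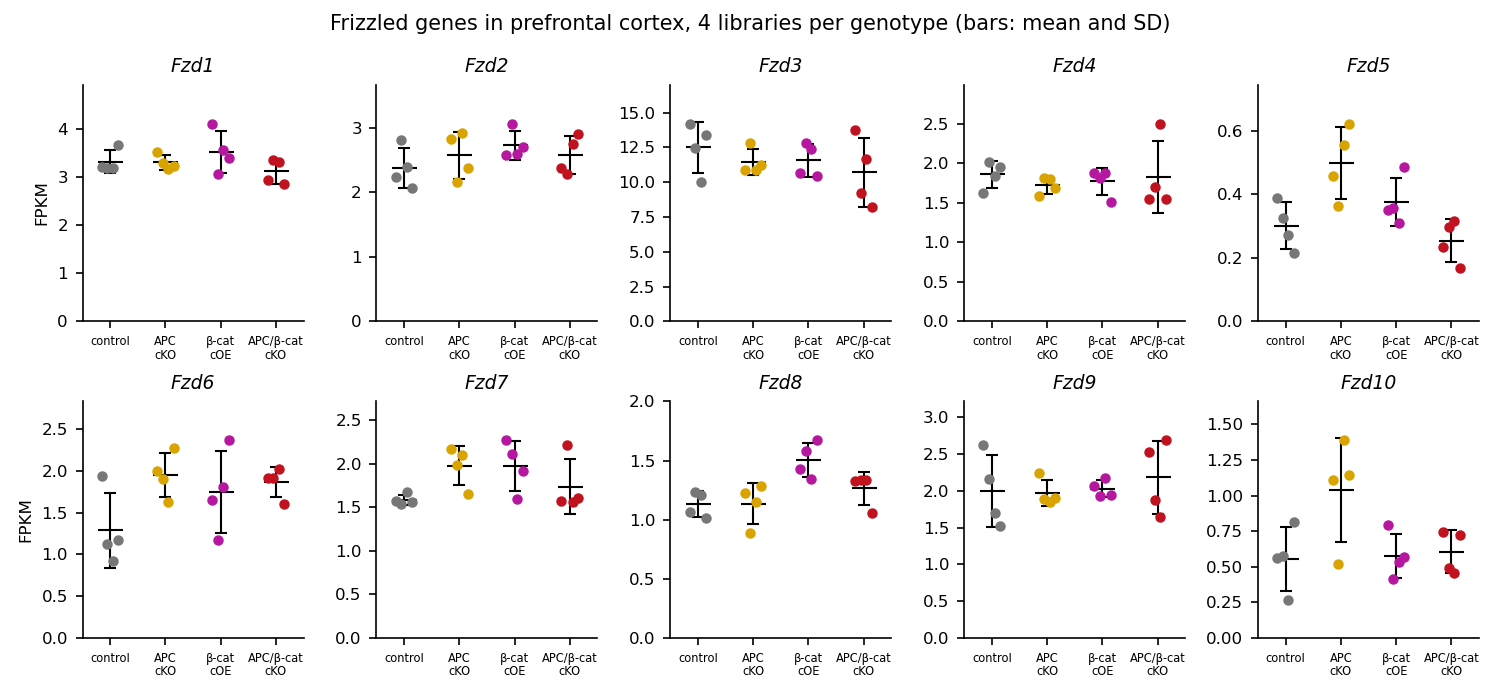
Each panel plots 1 Frizzled gene in FPKM, on an axis that starts at 0, for the 4 libraries of each genotype, with the mean and SD in black. Fzd6 is low in control libraries except one at 1.94 FPKM, and also in β-cat cOE 2 at 1.18 FPKM. Fzd8 is highest in the 4 β-cat cOE libraries, and Fzd5 and Fzd10 have their highest means in APC cKO, 0.499 and 1.04 FPKM.

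In the subgroup of Fzd1, Fzd2 and Fzd7, receptors that signal to β-catenin in many tissues, Fzd1 and Fzd2 had an SD over all libraries of 8.997% and 11.8% of their means. Fzd1 measured 3.22, 3.20, 3.20 and 3.68 FPKM in control, 3.52, 3.30, 3.18 and 3.24 in APC cKO, 4.11, 3.06, 3.56 and 3.39 in β-cat cOE, and 2.94, 3.35, 3.32 and 2.87 in APC/β-cat cKO. The β-cat cOE libraries included the highest value and the double mutants the lowest, and the ranges overlapped. That contrast, β-cat cOE against APC/β-cat cKO, gave Fzd1 a log2 fold change of 0.17 (SE 0.096, 95% interval -0.035 to 0.37, adjusted p = 0.495, limma), the smallest p of any member in it.

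Fzd2 measured 2.23, 2.81, 2.40 and 2.07 FPKM in control, 2.84, 2.16, 2.93 and 2.38 in APC cKO, 2.58, 3.06, 2.59 and 2.71 in β-cat cOE, and 2.38, 2.28, 2.75 and 2.91 in APC/β-cat cKO. The controls held the lowest library and β-cat cOE the highest, with overlap throughout. Its log2 fold changes ran from -0.089 to 0.20 over the 7 contrasts, and its smallest unadjusted p was 0.128.

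Fzd7 (chr1:59482424-59486955, plus strand), a receptor used by intestinal stem cells, had the smallest relative spread in control of the 10 members, an SD of 3.66% of the mean. Its control libraries read 1.57, 1.54, 1.67 and 1.56 FPKM (1.59 ± 0.0581, SD, n = 4). APC cKO libraries read 2.16, 1.99, 2.09 and 1.66 FPKM, β-cat cOE libraries 2.27, 2.11, 1.60 and 1.92 FPKM, and APC/β-cat cKO libraries 1.57, 2.22, 1.56 and 1.61 FPKM. In each line with raised β-catenin 3 of 4 libraries were above the highest control, against 1 of 4 double mutants, and 1 library of each raised line lay within the control range. The share of all genes with such a layout was not counted. Astrocyte markers of these libraries are given below.

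The 2 lines with raised β-catenin had nearly equal means of Fzd7, 1.98 ± 0.225 and 1.97 ± 0.290 FPKM, against 1.74 ± 0.320 in APC/β-cat cKO. Its log2 fold change was 0.29 in APC cKO against control (SE 0.14, 95% interval 0.0029 to 0.59, adjusted p = 0.493, limma) and 0.29 in β-cat cOE against control (unadjusted p = 0.0515). For the raised β-catenin lines together against the other groups it was 0.24 (SE 0.097, 95% interval 0.030 to 0.44, adjusted p = 0.506). None of these passed the threshold.

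TCF/LEF factors, through which β-catenin acts on transcription, bind sequences with the core CTTTG. The 250 bases before the RefSeq start were read for the 6 members with an entry in the RefSeq promoter table (GRCm38.p6, the build named mm10), Fzd1, Fzd4, Fzd5, Fzd7, Fzd9 and Fzd10. RefSeq starts differ from the GENCODE starts given here. They lie 277 bases upstream of them for Fzd7 and 181 for Fzd1, while for Fzd9 183 of the 250 bases, and for Fzd10 all 250, lie inside the GENCODE gene. CTTTGA and CTTTGT were searched on both strands, where they read TCAAAG and ACAAAG on the opposite one, and different motifs cannot match the same 6 bases. CTTTGT or its reverse occurred in Fzd1 and Fzd7, 2 of 6 members, beside 16.5% of all 32851 promoters in the table, and CTTTGA or its reverse in Fzd1, 1 of 6, beside 13.8%. Both sequences are shown because they hold the matches. Of the 9 tested members Fzd7 alone had an unadjusted p under 0.05 in the contrast of raised β-catenin (adjusted p = 0.506, limma). Fzd1, its relative and also with matches, had no such p there. Fzd5, whose fold change in that contrast was larger when fitted without the limit on low values, had no match in its 250 bases. Whether matches go with fold changes was not tested. The 2 sequences run 5′ to 3′ on the strand of the gene, with the matches in capitals.
Fzd7, chr1:59481897-59482146, plus strand: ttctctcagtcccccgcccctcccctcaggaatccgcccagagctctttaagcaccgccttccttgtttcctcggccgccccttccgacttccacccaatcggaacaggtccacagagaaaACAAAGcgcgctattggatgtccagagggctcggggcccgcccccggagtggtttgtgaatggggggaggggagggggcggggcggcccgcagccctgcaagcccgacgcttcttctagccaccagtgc
Fzd1, chr5:4758217-4758466, minus strand: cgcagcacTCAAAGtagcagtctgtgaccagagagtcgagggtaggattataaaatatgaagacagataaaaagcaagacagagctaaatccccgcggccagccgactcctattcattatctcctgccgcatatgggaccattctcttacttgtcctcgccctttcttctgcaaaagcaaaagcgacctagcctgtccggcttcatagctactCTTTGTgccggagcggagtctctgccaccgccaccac
The match in Fzd7 begins 129 bases before the RefSeq start, and those in Fzd1 begin 242 and 37 bases before it. The Fzd7 promoter has 65.2% G and C and the Fzd1 promoter 51.2%, and the median over all promoters was 52.4%. A match of 6 letters describes the sequence only, and no binding was measured.

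In the subgroup of Fzd9 and Fzd10, Fzd9 (chr5:135248938-135251230, minus strand), whose human counterpart lies in the region deleted in Williams syndrome, had genotype means between 1.97 and 2.18 FPKM. It measured 2.62, 2.15, 1.70 and 1.53 FPKM in control, 2.24, 1.89, 1.85 and 1.90 in APC cKO, 2.07, 1.93, 2.17 and 1.95 in β-cat cOE, and 2.52, 1.88, 1.64 and 2.68 in APC/β-cat cKO. Control and double mutant libraries spread over the whole range, with the other lines inside it. Its log2 fold changes ran from -0.12 to 0.12 over the 7 contrasts, with a smallest unadjusted p of 0.479.

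Fzd10 (chr5:128600844-128604093, plus strand), a receptor that can signal to β-catenin, read 0.563, 0.573, 0.268 and 0.817 FPKM in control. APC cKO libraries read 1.11, 0.522, 1.39 and 1.14 FPKM, β-cat cOE libraries 0.791, 0.413, 0.533 and 0.565 FPKM, and APC/β-cat cKO libraries 0.746, 0.492, 0.455 and 0.725 FPKM. APC cKO 1, 3 and 4 were above every library of the other genotypes, while APC cKO 2 lay among them. This layout was noticed after the values were seen, and its share over all genes was not counted. At this low level the SD over all 16 libraries was 43.1% of the mean. The mean in APC cKO was 1.04 ± 0.367 FPKM (SD, n = 4), against 0.555 ± 0.224 in control, 0.576 ± 0.158 in β-cat cOE and 0.605 ± 0.152 in APC/β-cat cKO.

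The log2 fold change of Fzd10 in APC cKO was 0.80 against control (SE 0.31, 95% interval 0.14 to 1.46, adjusted p = 0.413, limma), 0.71 against β-cat cOE (SE 0.31, 95% interval 0.054 to 1.37, adjusted p = 0.607) and 0.65 against APC/β-cat cKO (SE 0.31, 95% interval -0.0094 to 1.31, adjusted p = 0.494). All 3 contrasts share the APC cKO libraries, and the value passed the threshold in none. In β-cat cOE against control it was 0.089 (95% interval -0.57 to 0.75), an interval that holds changes of either sign.

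The summed markers of other cell types moved with the APC cKO libraries as follows. The 5 astrocyte markers summed to 361–512 FPKM in APC cKO and 337–364 in control, and the 4 pericyte markers to 14.6–17.5 FPKM in APC cKO and 19.3–20.8 in control, with no marker of either list at 0. All 5 astrocyte markers were higher in the mean, while of the pericyte markers 3 were lower and 1 was higher. The 6 endothelial markers summed to 30.5–43.2 FPKM in APC cKO and 38.3–45.7 in control, with 5 lower in the mean and 1 higher. The 5 oligodendrocyte markers summed to 603–721 FPKM in APC cKO and 686–1057 in control, with all 5 lower in the mean. The 5 striatal markers summed to 63.9–311 FPKM in APC cKO and 58.1–234 in control. All 5 were higher in the mean, with a median log2 fold change of 0.78, and 0 had an unadjusted p under 0.05 (limma). The 5 meningeal fibroblast markers summed to 14.7–20.5 FPKM in APC cKO and 13.1–22.7 in control. Of these 4 were higher in the mean, 1 with an unadjusted p under 0.05 (limma), and 1 was lower. The 4 markers of choroid plexus and ependyma summed to 6.30, 1.69, 7.32 and 8.39 FPKM in the APC cKO libraries and 2.49–4.38 in control. Of the 3 that passed the limit on low values, 2 were higher in the mean and 1 was lower. APC cKO 2, the library with the low Fzd10, had the lowest sum of its genotype for the choroid plexus and ependyma list and for the astrocyte list. It had the highest sum of its genotype for the named excitatory neuron, the endothelial and the pericyte markers. Among the double mutants, APC/β-cat cKO 2 had the highest sums for choroid plexus and ependyma (8.37 FPKM) and astrocytes (435 FPKM), with Fzd10 at 0.492 FPKM. It also had their highest Fzd7, 2.22 FPKM. In β-cat cOE all 5 astrocyte markers were higher in the mean than in control. Their sum was highest in β-cat cOE 1 (420 FPKM, Fzd7 2.27 FPKM) and lowest in β-cat cOE 3 (346 FPKM, Fzd7 1.60 FPKM). In APC cKO the highest sum and the highest Fzd7 (2.16 FPKM) were both in APC cKO 1. APC cKO 2, with the lowest sum, had Fzd7 at 1.99 FPKM. The part of these differences in the values of Fzd6, Fzd7 and Fzd10 was not tested.

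Fzd4, the receptor of norrin in retinal and brain endothelium, had genotype means between 1.72 and 1.86 FPKM. It measured 1.63, 2.01, 1.84 and 1.96 FPKM in control, 1.58, 1.82, 1.80 and 1.69 in APC cKO, 1.88, 1.81, 1.88 and 1.51 in β-cat cOE, and 1.55, 1.70, 2.50 and 1.55 in APC/β-cat cKO. The value of 2.50 FPKM in APC/β-cat cKO 3 stood alone. The endothelial markers of that library summed to 35.9 FPKM, at the low end of its genotype (35.9–41.0 FPKM). Its pericyte markers summed to 19.5 FPKM, the highest of its genotype (14.5–19.5 FPKM). The part of vessel cells in this Fzd4 value was not tested. The log2 fold changes of Fzd4 ran from -0.10 to -0.020 over the 7 contrasts, with a smallest unadjusted p of 0.486 (limma).

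In the subgroup of Fzd5 and Fzd8, the 4 β-cat cOE libraries were the highest for Fzd8 (chr18:9212163-9218136, plus strand), the Frizzled whose cysteine-rich domain was crystallised with a Wnt. Fzd8 read 1.07, 1.23, 1.21 and 1.01 FPKM in control, 1.23, 0.889, 1.147 and 1.28 in APC cKO, 1.43, 1.58, 1.35 and 1.67 in β-cat cOE, and 1.33, 1.34, 1.33 and 1.06 in APC/β-cat cKO. All 4 β-cat cOE libraries were above all 12 others, the lowest of them, 1.35 FPKM, just above the highest double mutant, 1.34 FPKM. This layout was noticed after the values were seen. It occurred in 12 of the 13978 genes tested, 0.0858%, a share for this genotype and direction only. All members and genotypes had been looked over, so the share does not measure how rare such a find is.

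The mean of Fzd8 was 1.504 ± 0.146 FPKM (SD, n = 4) in β-cat cOE, 1.13 ± 0.107 in control, 1.14 ± 0.174 in APC cKO and 1.26 ± 0.137 in APC/β-cat cKO. Its log2 fold change was 0.38 in β-cat cOE against control (SE 0.14, 95% interval 0.086 to 0.68, adjusted p = 0.946, limma) and -0.38 in APC cKO against β-cat cOE (SE 0.14, 95% interval -0.68 to -0.088, adjusted p = 0.496). Against APC/β-cat cKO the value in β-cat cOE was 0.24, with an interval of -0.059 to 0.53. The APC cKO mean lay within the control range, 1.01 to 1.23 FPKM, and no difference of Fzd8 passed the adjusted threshold.

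Fzd5, a receptor best known in eye and vascular development, was the lowest member. It read 0.389, 0.326, 0.273 and 0.216 FPKM in control, 0.459, 0.363, 0.554 and 0.621 in APC cKO, 0.351, 0.358, 0.311 and 0.486 in β-cat cOE, and 0.234, 0.298, 0.316 and 0.168 in APC/β-cat cKO. The APC cKO libraries were all above the double mutants, 3 of 4 were above every control, and the other pairs of genotypes overlapped. Of the 19443 genes above 0 in any library, 2% had every APC cKO library above every double mutant library. The share with 3 of 4 above every control was not counted.

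Fzd5 could be tested only without the limit on low values. The log2 fold change was then 0.76 in APC cKO against APC/β-cat cKO, with an unadjusted p of 0.00160 (SE 0.20, 95% interval 0.34 to 1.18, adjusted p = 0.202, limma), 0.58 in APC cKO against control (SE 0.20, adjusted p = 0.396), 0.25 in β-cat cOE against control (adjusted p = 0.942) and 0.51 for the raised β-catenin lines against the others (SE 0.14, adjusted p = 0.372). None passed the threshold, and at levels this low the SD over all 16 libraries was 34.1% of the mean.

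Over the 16 libraries the members did not move as a family. Pearson r of the log2 values over the 45 pairs of members ran from -0.61 to 0.48, with a median of 0.10, and within the subgroups it was -0.041 for Fzd3 and Fzd6, -0.24 for Fzd1 and Fzd2, 0.35 for Fzd1 and Fzd7, 0.23 for Fzd2 and Fzd7, 0.25 for Fzd5 and Fzd8 and 0.17 for Fzd9 and Fzd10. The lowest was that of Fzd4 and Fzd9. After subtraction of the genotype means r was 0.73 for Fzd5 and Fzd8, the highest of the 45 pairs. For the other pairs within subgroups it then ran from -0.42 (Fzd1 and Fzd2) to 0.29 (Fzd1 and Fzd7). The points share library, tissue piece and genotype, so these values describe the libraries and carry no test.

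The genes most like each member, among 12892 genes of at least 1 FPKM, set Fzd3 apart in the same descriptive sense. Its nearest were Ttbk2, Pcnx and Akap6, each at r = 0.97, and 135 genes exceeded r = 0.9. No gene exceeded 0.9 for another of the 9 members compared, Fzd5 being left out for its low level. Fzd3 averaged 11.6 FPKM and each of the others compared 3.32 FPKM or less, and the part of this difference in level in the values of r was not tested. The 135 genes also had long transcripts where a length was annotated, with a median of 8105 nucleotides against 2729 for the genes compared. The part of transcript length in the values of r and in the levels of Fzd3 was not tested. Fzd1 was nearest to B230120H23Rik (0.89), with Limch1 also among the 3 nearest (0.86), and Fzd2 to Sys1 (0.79), 1600020E01Rik (0.79) and Rrp36 (0.78). Fzd4 was nearest to Mllt6 (0.76), Stab1 (0.70) and Dmpk (0.66), and Fzd6 to Tada2b (0.87), Med11 (0.86) and Fuca2 (0.85). Fzd7 was nearest to Fam198a (0.87), Lrrc51 (0.85) and Galnt10 (0.84), and Fzd8 to 9430041J12Rik, Fam3a and Tox2 (0.78 each). Fzd9 was nearest to Dnajc11 (0.82), 1810030N24Rik (0.80) and Gtpbp5 (0.79), and Fzd10 to Rps6ka6 (0.86), Slc44a5 (0.83) and Celf6 (0.83). After subtraction of the genotype means the values for Ttbk2, Pcnx and Akap6 were 0.98, 0.97 and 0.97, while that of Fam3a fell to 0.56.

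Around the receptors, 47 genes of Frizzled signalling were examined in 7 lists, and 35 of them passed the limit on low values. None of the 35 passed the adjusted threshold in a comparison with control, and 4, 1 and 2 of them had an unadjusted p under 0.05 in APC cKO, in β-cat cOE and in APC/β-cat cKO, beside the 10%, 5.07% and 14.2% of all genes given above. The medians of their log2 fold changes were 0.063, 0.052 and 0.0033. Of the ligands, Wnt6 had a log2 fold change of 0.99 (adjusted p = 0.332, limma) and Wnt16 of 0.76 (adjusted p = 0.435) in APC cKO, and Wnt2b of -0.52 (adjusted p = 0.316) in APC/β-cat cKO. The other 9 of the 12 tested ligands had no p under 0.05 against control. Of the co-receptors, Ptk7, a receptor of planar polarity, had 0.34 in APC cKO (adjusted p = 0.465). Rspo2, an R-spondin that keeps Frizzled proteins on the membrane by removing their ubiquitin ligases, had -0.40 in β-cat cOE (adjusted p = 0.946). Reck, which presents Wnt7 ligands to endothelial Frizzled receptors, had -0.30 in APC/β-cat cKO (adjusted p = 0.352). The 3 Dishevelled genes and Smo, the other receptor of class F, had none.

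Of the 35 genes 1 passed the threshold, in APC cKO against APC/β-cat cKO. Sfrp1, a soluble Frizzled-related protein that binds Wnt ligands with a domain like that of the receptors, read 9.21, 6.66, 5.15 and 6.16 FPKM in control, 12.2, 9.38, 13.9 and 10.9 in APC cKO, 7.89, 4.82, 5.13 and 5.31 in β-cat cOE, and 6.82, 6.14, 4.63 and 5.49 in APC/β-cat cKO. All APC cKO libraries were above all others, APC cKO 2 only just above control 1, a layout shared by 12 of the 13978 genes tested, 0.0858%. Its log2 fold change in APC cKO was 0.996 against APC/β-cat cKO (SE 0.18, adjusted p = 0.0396, limma), 1.005 against β-cat cOE (SE 0.18, adjusted p = 0.102) and 0.78 against control (SE 0.18, adjusted p = 0.248). The call against APC/β-cat cKO was kept under 14 of 28 other settings, with adjusted p from 0.00881 to 0.150, and the log2 fold change stayed between 0.90 and 1.09. It was lost without control 2, APC cKO 1, 3 or 4, β-cat cOE 4, or APC/β-cat cKO 2, 3 or 4. The other 3 tested genes of its list gave no call. In the same comparison the 5 oligodendrocyte markers were all lower in APC cKO with an unadjusted p under 0.05 (sums of 603–721 against 878–994 FPKM). The 5 astrocyte markers were all higher in the mean, 1 of them with an unadjusted p under 0.05 (361–512 against 319–435 FPKM), and 4 of 5 meningeal fibroblast markers were higher, 2 of them with an unadjusted p under 0.05 (14.7–20.5 against 10.1–17.6 FPKM). Their part in the Sfrp1 value was not tested.

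**Figure D4:**
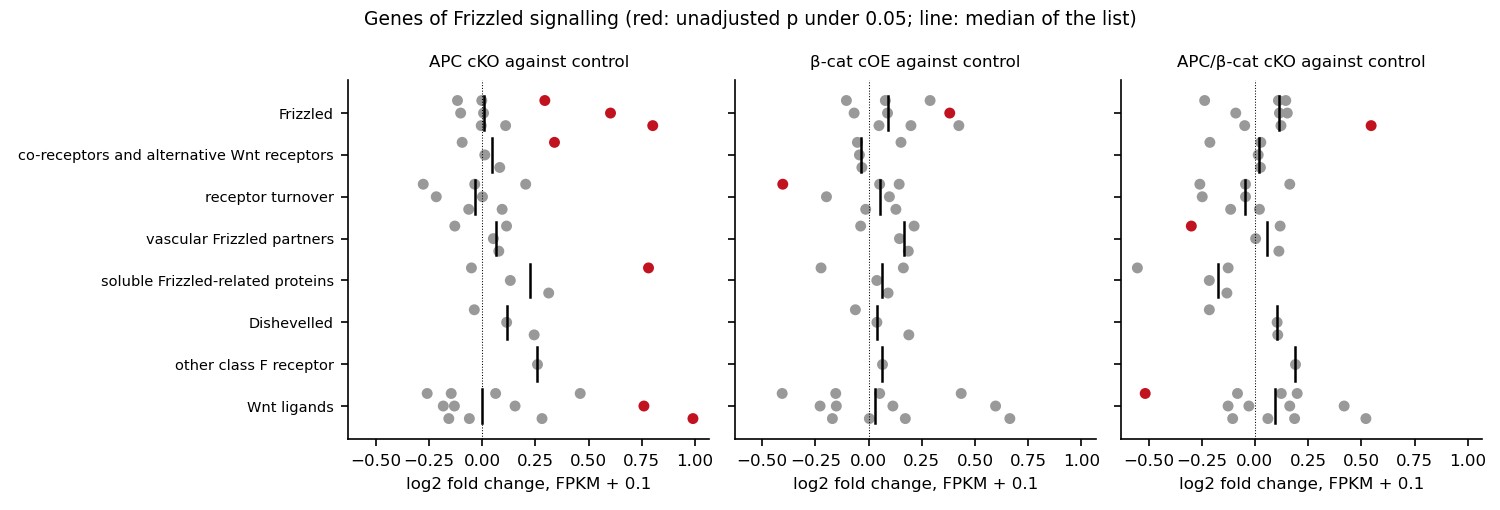
Each point is the log2 fold change on FPKM + 0.1 against control of 1 tested gene, by list, in APC cKO (left), β-cat cOE (middle) and APC/β-cat cKO (right). Red points had an unadjusted p under 0.05, and black lines are the medians of the lists, which for the Frizzled genes were 0.0060, 0.089 and 0.12.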

How the data were processed

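PFC polyA RNA was sequenced by the authors (TruSeq stranded libraries, HiSeq, paired ends), aligned to mm10 with TopHat2 2.0.10 and quantified with Cuffdiff 2.1.1. The deposited table holds log2 values per gene and library, made by the authors. Neither base nor offset is stated, and log2(FPKM + 1) was taken, because FPKM times transcript length in kb then summed to 962144–1022988 per library (8146608–8883453 if read as natural log), and were converted back to FPKM.

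Genes averaging at least 0.5 FPKM were tested with limma 3.58.1 in R 4.3.3 (1 fit of 16 libraries, eBayes with trend, two-sided) on log2(FPKM + 0.1), with Benjamini-Hochberg adjustment over all genes; the fit was tested on simulated data. Groups came from the genotype labels, and libraries are numbered in accession order. The members and gene lists were chosen with earlier results of these data known. Fold changes are printed for members with an unadjusted p under 0.05 and for the smallest p of a comparison; others are printed beside them where a group is discussed. Genes of the other lists are named where p was under 0.05 against control, and Sfrp1 also for its call. Likeness names the 3 genes of highest Pearson r; the second for Fzd1 and 1 excitatory neuron marker are not reported here. Read depth is unknown, so 4 libraries per genotype set the precision. Alternatives were other pseudocounts, limits, scalings, covariates, blocks and libraries left out.

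Numbers in the titles are shared between genotypes, but over 21 same-numbered pairs the deviations from genotype means correlated at -0.218 to 0.322 (median -0.0693), so libraries were not treated as paired. Promoters, and no other sequences, came from RefSeq. Fzd2, Fzd3, Fzd6 and Fzd8 were not matched there.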

Additional observations from a re-analysis of the deposited data

Results flagged for a closer look

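In 5 of 40 groups of 4 libraries (10 members in 4 genotypes) 1 library stood far from the others, where chance gives about 2 (gap to the nearest library over the range of the group above its 95% critical value). For Fzd1 in control the share was 0.961, from 1 library at 3.68 FPKM against 3.20–3.22 FPKM. For Fzd4 in APC/β-cat cKO it was 0.835, from 2.50 FPKM against 1.55–1.70 FPKM. For Fzd7 in APC/β-cat cKO it was 0.926, from 2.22 FPKM against 1.56–1.61 FPKM. For Fzd8 in APC/β-cat cKO it was 0.978, from 1 low library at 1.06 FPKM against 1.33–1.34 FPKM. For Fzd9 in APC cKO it was 0.867, from 2.24 FPKM against 1.85–1.90 FPKM. The far libraries of APC/β-cat cKO were replicate 3 for Fzd4, 2 for Fzd7 and 4 for Fzd8, so no single library accounted for them.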

How the results depend on the processing

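Under 28 other settings, 16 of them leaving out 1 library, no Frizzled gene passed the adjusted threshold in any comparison, and the smallest adjusted p was 0.0993, for Fzd6 in APC cKO against control without control 1 (0.0993 to 0.775 over its alternatives). The 10 fold changes named by the rule kept their sign in all 270 recomputed values. Of the others printed beside them, in β-cat cOE against control, Fzd6 (0.27 to 0.63) and Fzd7 (0.20 to 0.38) kept theirs, as did Fzd8 against APC/β-cat cKO (0.15 to 0.28), while Fzd10 ranged from -0.16 to 0.27. Fzd5 could be fitted only with no limit on low values, so its fold changes have no alternative. Fzd10 in APC cKO against control ranged from 0.38 to 1.07, Fzd6 there from 0.38 to 0.80, Fzd7 from 0.20 to 0.37, and Fzd8 in β-cat cOE against control from 0.23 to 0.43, the lower ends under a pseudocount of 1. The 3 members with an unadjusted p under 0.05 in APC cKO against control became 1 with a replicate block from the title numbers, without the 2 female libraries, without control 3 and without APC cKO 3. A limit of 2 FPKM leaves 4 members and removes all 3 of these, so its count of 0 was fixed in advance. Fzd7 in that comparison was under 0.05 in 10 of 27 alternatives. Over the controls alone Fzd6 averaged 1.29 FPKM. Among the other signalling genes, the 1 call (Sfrp1) of APC cKO against APC/β-cat cKO became 0 with no limit on low values, quantile scaling, no trend, sex as a covariate, only the compared groups fitted, or without the 2 female libraries, and ranged from 0 to 1 with 1 library left out. Calls of 0 became 1 (Sfrp1) for APC cKO against β-cat cOE with a replicate block from the column numbers, and for any difference with a pseudocount of 1 or that block; with 1 library left out both ranged from 0 to 1, as did APC cKO against control, where only leaving out control 1 gave 1. The cause of these changes was not tested. A replicate block from the title numbers changed no adjusted call of these genes, and libraries were not paired; the block by column numbers and the fit without female libraries were chosen after seeing the data. Unknown depth limits Fzd5 and Fzd10.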

Other observations

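Among the 9 members compared (Fzd5 was left out), Fzd3, which was also the member of the highest level, alone had genes above r = 0.9 over the 16 libraries. Of these 135 genes 121 had an annotated length, with a median transcript of 8105 nucleotides, against 2729 nucleotides for the 11677 of 12892 compared genes with a length, and 12734 for Fzd3 itself.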
